A study of Bombus terrestris with 33 samples.

Results

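The contigs described here are the 100, of 10672 in the table, whose levels in the brain of Bombus terrestris, the buff-tailed bumblebee, most clearly set successful queens apart from queens that failed, both at mating and at reproduction. They were chosen from brain read counts of 33 queens. Each contig's level was taken as y, the log2 of its read count scaled to library total (CPM) plus 1, less the library's median of that value over the 2945 contigs that averaged 5 CPM or more. Among contigs averaging 1 CPM or more, the 100 most abundant were set aside, which left 3924 eligible contigs. The 4 group means of y were sorted, and contigs were kept where the largest gap between neighbouring means lay between the successful groups and the failed groups. There were 239 such contigs, or 6.09% of the eligible ones. The 100 with the highest gap, divided by the mean SD within groups, are the members. Members higher in successful queens are called success-high below, and members higher in failed queens failure-high.

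The study profiled brain mRNA with 1 library per queen, in 4 groups of adult queens from commercial colonies. The 8 SM queens mated after being offered males at 5 days of age and were frozen 3 days after mating. The 9 FM queens were first offered males at the same age and failed to mate. The 8 SR queens and the 8 FR queens had mated, had spent 8 weeks of hibernation at 5 °C and were frozen 1 month after it, with fully developed ovaries in SR queens and undeveloped ovaries in FR queens. The ovary class was thus read at dissection and was not assigned by treatment. Each pair of groups drew on 3 colonies, C2, C3 and C7 for SM and FM and C2, C3 and C9 for SR and FR. Estimated age, read as days, was 11 to 20 in SM, 6 to 27 in FM, 94 to 97 in SR and 91 to 102 in FR queens.

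In this species a young queen mates, stores the sperm, hibernates alone and founds a colony only after hibernation, when her ovaries mature. The brain takes part in ovary maturation. Its neurosecretory cells control the glands that release juvenile hormone, a hormone that promotes ovary development in bumblebees. Mating is known to change receptivity and later behaviour in many insects. None of the contig identifiers matched a name in the reference gene table of 13398 genes, so the contigs carry no gene names or roles here. The brain label could not be checked against marker genes for the same reason, and no contig sequence was used.

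Of the 100 members, 41 were success-high and 59 were failure-high. The difference was small for most of them. The gap in y had a median of 0.171 and ranged from 0.0504 to 0.748, exceeded 0.25 in 23 members and exceeded 0.5 in 6. The ratio of gap to SD had a median of 0.825, ranged from 0.654 to 1.45 and was over 1 in 26 members. Eligible contigs, whichever groups their largest gap parted, had a median gap of 0.169 and a median ratio of 0.818. The medians of the members thus lay close to those of the eligible contigs. In no member did the 16 SM and SR queens lie wholly to one side of the 17 FM and FR queens, which was also so for each of the 3924 eligible contigs (0%). No member separated SM from FM queens without overlap (0% of eligible contigs did), and none separated SR from FR queens (1.1% of eligible contigs did). The members are thus contigs with shifted group means and overlapping queens. In whole-brain RNA, fewer cells of a type and less RNA per cell cannot be told apart.

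The success-high member with the highest ratio was Contig5428, a sparse contig. Its level had a low of 1.10, a median of 1.47 and a high of 2.60 CPM in SM queens, against 0.162, 0.987 and 2.34 CPM in FM queens. After hibernation the same 3 values were 1.005, 1.82 and 2.47 CPM in SR queens, against 0.564, 0.967 and 1.70 CPM in FR queens. The successful medians lay above both failed medians, while the ranges overlapped at each stage. Contig5570, next among success-high members and far more abundant, had the largest gap of all members, 0.748. Its low, median and high were 234, 418 and 557 CPM in SM queens, against 46.9, 297 and 414 CPM in FM queens. They were 226, 469 and 529 CPM in SR queens, against 107, 151 and 460 CPM in FR queens. The SM median exceeded every FM queen and the SR median exceeded every FR queen, but the lowest SM queen and the lowest SR queen lay well inside the failed ranges. The highest FR value of Contig5570, 460 CPM, belonged to FR replicate 37. The lowest FM value, 46.9 CPM, belonged to FM replicate 6. Its y was -0.678, against 0.529 in FM replicate 4, the next lowest. The gap of 0.748 lay between the SM and FM means, so this 1 queen widened it.

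Contig354 had the highest ratio of all members, 1.45, with a gap of only 0.128 and a narrow spread between queens. Its low, median and high were 89.99, 112 and 121 CPM in SM queens, against 97.6, 129 and 144 CPM in FM queens, and 93.0, 102 and 116 CPM in SR queens, against 112, 128 and 139 CPM in FR queens. In y, the means of Contig354 differed by -0.162 for SM minus FM and by -0.134 for SR minus FR. Contig1565, next among failure-high members, had 9.14, 11.5 and 12.8 CPM in SM queens, against 9.55, 13.8 and 20.7 CPM in FM queens. It had 8.66, 10.6 and 15.8 CPM in SR queens, against 11.4, 15.5 and 19.8 CPM in FR queens. For both contigs the medians of the failed groups exceeded those of the successful groups at each stage, with overlap at each. The members were chosen on y of the same queens, so these CPM values are given as a description, with no test. CPM keeps the library median that y subtracts, so a difference can be larger or smaller in CPM than in y.

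**Figure D1:**
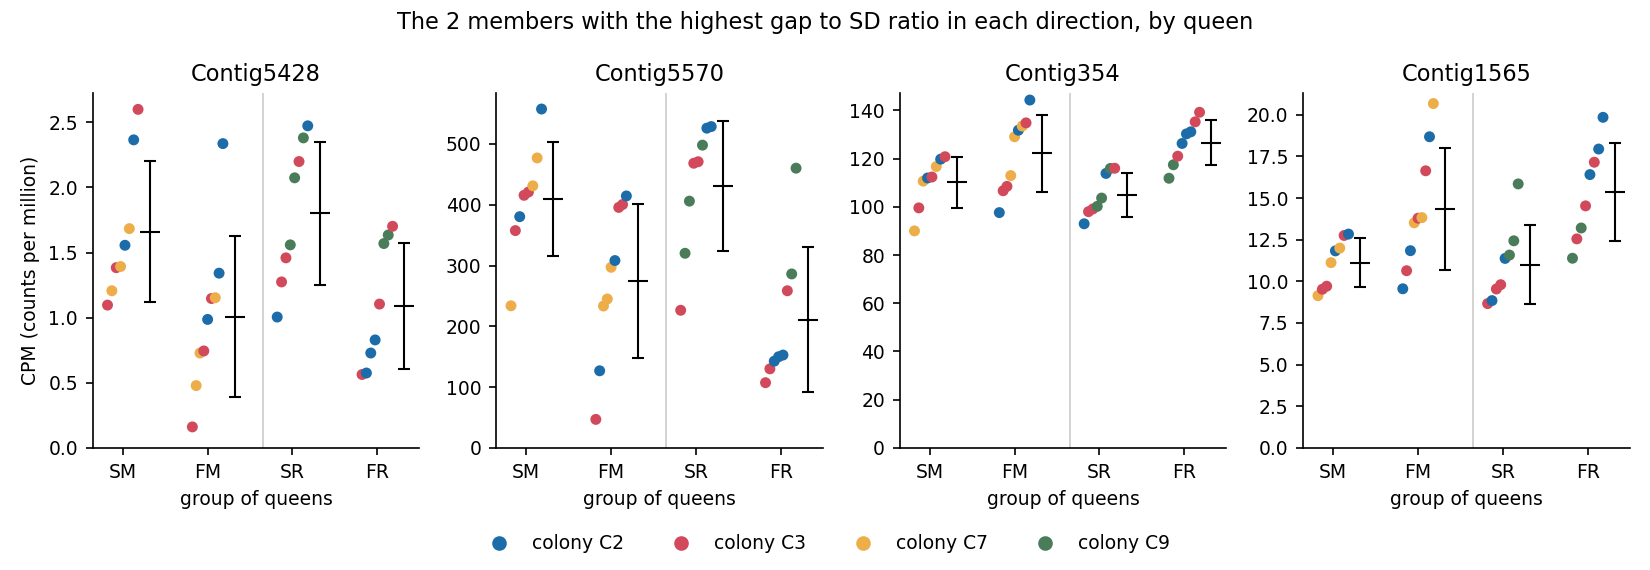
CPM of the 2 success-high (Contig5428, Contig5570) and 2 failure-high (Contig354, Contig1565) members with the highest ratio, with 1 point per queen coloured by colony, points within a group sorted by value, and the group mean ± SD beside them. The group means part by outcome at both stages, and in each of the 4 panels the queens of SM and FM, and of SR and FR, overlap.

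The edge of the set was not sharp. The members ranked 99 and 100, Contig8671 and Contig2657, had ratios of 0.655 and 0.654, and the 2 contigs next below, Contig3416 and Contig4282, had 0.652 and 0.651. The parting by outcome was also the least common way in which the 4 means parted 2 against 2. Contigs parted by stage, SR and FR from SM and FM, numbered 279 (7.11% of eligible contigs), and contigs parted crosswise, SM and FR from FM and SR, numbered 281 (7.16%). The contig ranked 100 by the same ratio had 0.654 for outcome, 0.813 for stage and 0.770 for the crossed parting. A single group stood apart in the remaining contigs, most often FR with 1742 (44.4%). These counts describe how the eligible contigs divide, and no test of the difference was made.

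The differences at the 2 stages were of like size in the members. The median size of SM minus FM in y was 0.217 in members and 0.0768 over all eligible contigs, and that of SR minus FR was 0.237 in members and 0.196 over all eligible contigs. SR minus FR was the larger of the 2 in 63 of the 100 members (28 success-high and 35 failure-high) and in 73.9% of eligible contigs. Set beside the eligible contigs, the members thus stood out more in SM minus FM than in SR minus FR. The rule required both differences, so this describes the choice.

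**Figure D2:**
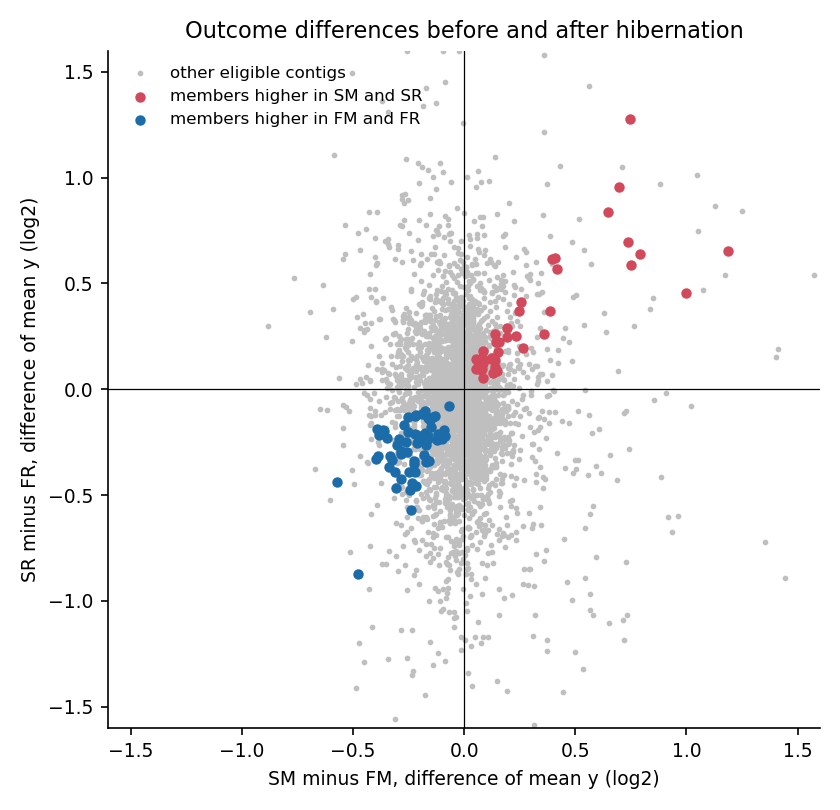
Difference of group means of y (log2) for SM minus FM (x axis) and SR minus FR (y axis), with 41 success-high members in red, 59 failure-high members in blue and other eligible contigs in grey (31 contigs lie beyond the axis limit of 1.6). The members lie in the 2 corners where both differences have the same sign, and most lie within 0.5 of 0 on both axes.

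Within outcomes, the stages lay close together, as the rule demands. The median size of SR minus SM was 0.0487 in members and 0.104 over eligible contigs, and that of FR minus FM was 0.0516 in members and 0.167 over eligible contigs. The most frequent order, in 22 members, was SR lowest, then SM, FM and FR highest. Its mirror image, with FR lowest, then FM, SM and SR highest, held in 15 members. The order with FR lowest, then FM, SR and SM highest also held in 15. FR lay above FM in 35 of 59 failure-high members and in 11 of 41 success-high members.

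The edgeR quasi-likelihood fit over all 5606 tested contigs, with colony as a term, gave the background for these differences. It adjusts p-values by Benjamini-Hochberg over all contigs and calls at 0.05. All 100 members were tested. For SR minus FR, 34 members were called, 21 higher and 13 lower in SR queens, beside 29.5% of all contigs (14.3% higher and 15.2% lower), and 59 had an unadjusted p under 0.05, beside 42% of all contigs. For SM minus FM no member was called, beside 0% of all contigs, and 46 members had an unadjusted p under 0.05, beside 10.1%. DESeq2 and limma-voom called no member there either. Both contrasts were used by the rule, so nothing is read from these counts. The count of 34 depended on single libraries. Leaving out SR replicate 40 gave 18 and SR replicate 39 gave 20. Leaving out FR replicate 36 gave 19, FR replicate 27 gave 20, FR replicate 28 gave 21 and FR replicate 37 gave 52.

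The average of SM minus FM and SR minus FR in the same fit, which the rule also used, called 49 members, 22 higher and 27 lower in successful queens, beside 8.94% of all contigs (4.16% higher and 4.78% lower). At an unadjusted p under 0.05 there were 96 members, beside 31.1%. These calls were unstable. They fell to 0 when SM replicate 19 or 23, SR replicate 39, 40, 43 or 45, or FR replicate 27, 28, 33 or 36 was left out. They numbered 11 without FM replicate 4, 20 without SM replicate 16, 27 without SR replicate 44, 30 without FM replicate 11 and 32 without SM replicate 25. Leaving out FM replicate 6 also gave 32, and leaving out FR replicate 37 gave 74. The change of the outcome difference between stages, SR minus FR less SM minus FM, was called in 0 members by edgeR, with 0 at an unadjusted p under 0.05, beside 7.26% called (3.37% higher and 3.89% lower) and 30.5% at the unadjusted p. DESeq2 called 0 members for it, beside 14.6% of all contigs, and limma-voom 17, beside 43.7%. The rule kept stage gaps in y below the outcome gap, which bounds this change too. Nothing is therefore read from its counts.

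Among the members called for SR minus FR, the largest fold changes upward were those of Contig5570, at a log2 fold change of 1.24 ± 0.33 (SE), and Contig1987, at 0.94 ± 0.34 (SE). Contig1987 averaged 20.6 ± 6.83 CPM in SR and 11.9 ± 6.05 CPM in FR queens (SD, n = 8 each). It averaged 16.0 ± 4.41 CPM in SM queens (SD, n = 8) and 10.4 ± 6.27 CPM in FM queens (SD, n = 9). The largest downward were Contig1625, at -0.60 ± 0.19 (SE), and Contig4643, at -0.58 ± 0.17 (SE). Contig1625 averaged 1.09 ± 0.175 CPM in SR and 1.97 ± 0.558 CPM in FR queens (SD, n = 8 each). Contig4643 averaged 18.9 ± 4.73 CPM in SR and 32.0 ± 8.61 CPM in FR queens (SD, n = 8 each). Before hibernation Contig4643 averaged 21.2 ± 3.42 CPM in SM and 25.8 ± 9.32 CPM in FM queens, a difference smaller than the SD among FM queens. Contig1987 was no longer called when SR replicate 39, 40, 43, 44 or 49, or FR replicate 27, 28, 33, 36 or 38, was left out, nor with total counts in place of scaling factors or with no filter on low counts. Contig1625 was no longer called without SR replicate 39. Contig354, which had the highest ratio of all members, was not called by edgeR, at -0.071 ± 0.045 (log2, SE).

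For SM minus FM the members with the lowest p in each direction were Contig8055, which was higher in SM queens, and Contig4020, which was lower. Contig8055 averaged 5.27 ± 2.55 CPM in SM (SD, n = 8) and 2.55 ± 2.67 CPM in FM queens (SD, n = 9). The fitted log2 fold change was 1.29 ± 0.47 (SE). Contig4020 averaged 8.62 ± 1.58 CPM in SM and 11.4 ± 2.45 CPM in FM queens, and its fitted change was -0.42 ± 0.11 (log2, SE). Neither was called.

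The stage contrasts in the same fit called no member. For SR minus SM, 0 members were called by edgeR, beside 0% of all contigs, and 1 member had an unadjusted p under 0.05, beside 10.6%. Contig2883 and Contig5432 had the lowest p in each direction, with log2 fold changes of 0.17 ± 0.08 and -0.12 ± 0.07 (SE). DESeq2 and limma-voom also called no member, beside 0.803% and 7.65% of all contigs. For FR minus FM, 0 members were called, beside 17.3% of all contigs (8.4% higher and 8.9% lower), and 4 had an unadjusted p under 0.05, beside 34.3%. Contig8004, at 20.1 ± 4.33 CPM in FR and 16.2 ± 4.10 CPM in FM queens, and Contig880, at 517 ± 20.7 CPM in FR and 501 ± 43.3 CPM in FM queens, had the lowest p in each direction (SD, n = 8 FR and 9 FM). Their log2 fold changes were 0.28 ± 0.11 and -0.11 ± 0.04 (SE). The fit includes scaling factors and colony, and for Contig880 its sign is opposite to that of the CPM means. DESeq2 called 1 member for FR minus FM, beside 23% of all contigs, and limma-voom 26, beside 44.1%. With 1 library left out, edgeR called 2 without FM replicate 4, 6 without FM replicate 6, 3 without FR replicate 32 and 1 without FR replicate 37. The rule kept only contigs whose gaps between stages, in y, were smaller than their outcome gap, so nothing is read from these counts.

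The members were then read queen by queen. For each member the midpoint of its gap was taken as a divide, and each queen was scored by how many of the 100 members lay on the side of the successful groups. SM queens had a low of 49, a median of 80 and a high of 92 members on that side, against 9, 29 and 77 in FM queens. SR queens had 64, 79 and 92, against 0, 9.5 and 88 in FR queens. More than 50 members lay on the success side in 7 of 8 SM, 4 of 9 FM, 8 of 8 SR and 1 of 8 FR queens. The same queens chose the members, so these shares describe the set and give no rate for other queens.

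**Figure D3:**
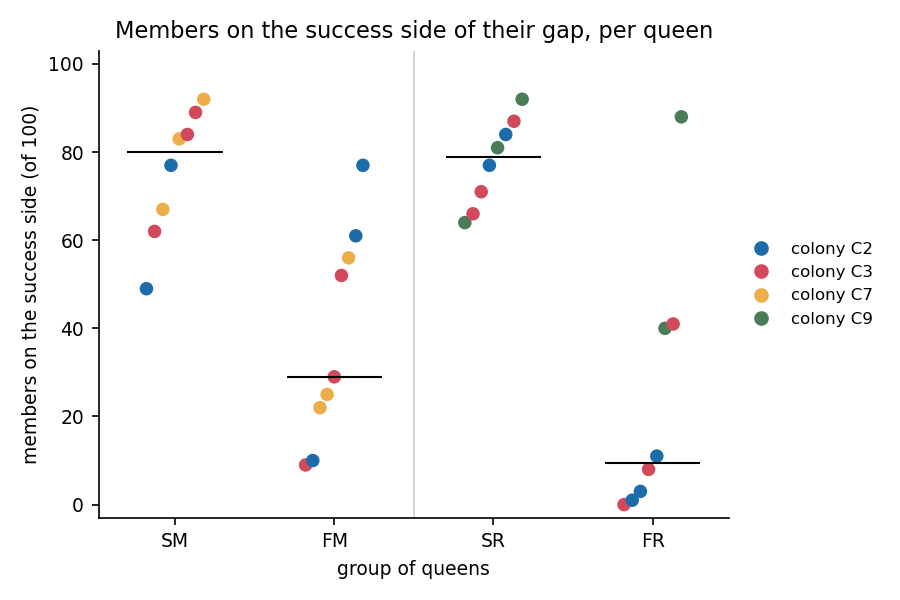
Number of the 100 members on the success side of their gap in each queen, coloured by colony, with points within a group sorted by value and the group median as a line. FR replicate 37 had 88 members on the success side while the other FR queens had 0 to 41, and FM queens spread from 9 to 77.

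FR queens held both extremes of their group's range. FR replicates 36, 27 and 28 had 0, 1 and 3 members on the success side, while FR replicate 37 of colony C9 had 88, more than 7 of the 8 SR queens. Among FM queens, replicates 5 and 2 had 77 and 61, and replicates 6 and 4 had 9 and 10. In FR replicate 37, 35 of 41 success-high and 53 of 59 failure-high members lay on the success side. Its total count of 51999602 lay within the range of the other FR libraries, 44074336 to 54995271. The most abundant contig of the table held 1.64% of its reads, against 0.00794% to 4.78% in the other FR queens. The part of these in its values was not tested.

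Across the groups, the share of reads held by that contig moved with outcome after hibernation. The median was 6.84% in SR and 0.262% in FR queens, and 1.61% in SM and 2.77% in FM queens. The library median that y subtracts moved with it, at 6.29 in SR, 6.45 in FR, 6.41 in SM and 6.31 in FM queens (medians, log2). The part of this in the members was not tested directly, but their directions were recomputed. With TMM factors in place of the median, all 100 members kept both directions, though only 84 were still parted by outcome. With plain CPM all 59 failure-high members kept both, and 29 of 41 success-high members did, the other 12 losing the higher level in SR queens. Chosen anew, the set had 20 success-high contigs of 100 with plain CPM and 61 with TMM factors, against 41 here, so the balance of directions rests on the scaling.

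**Figure D4:**
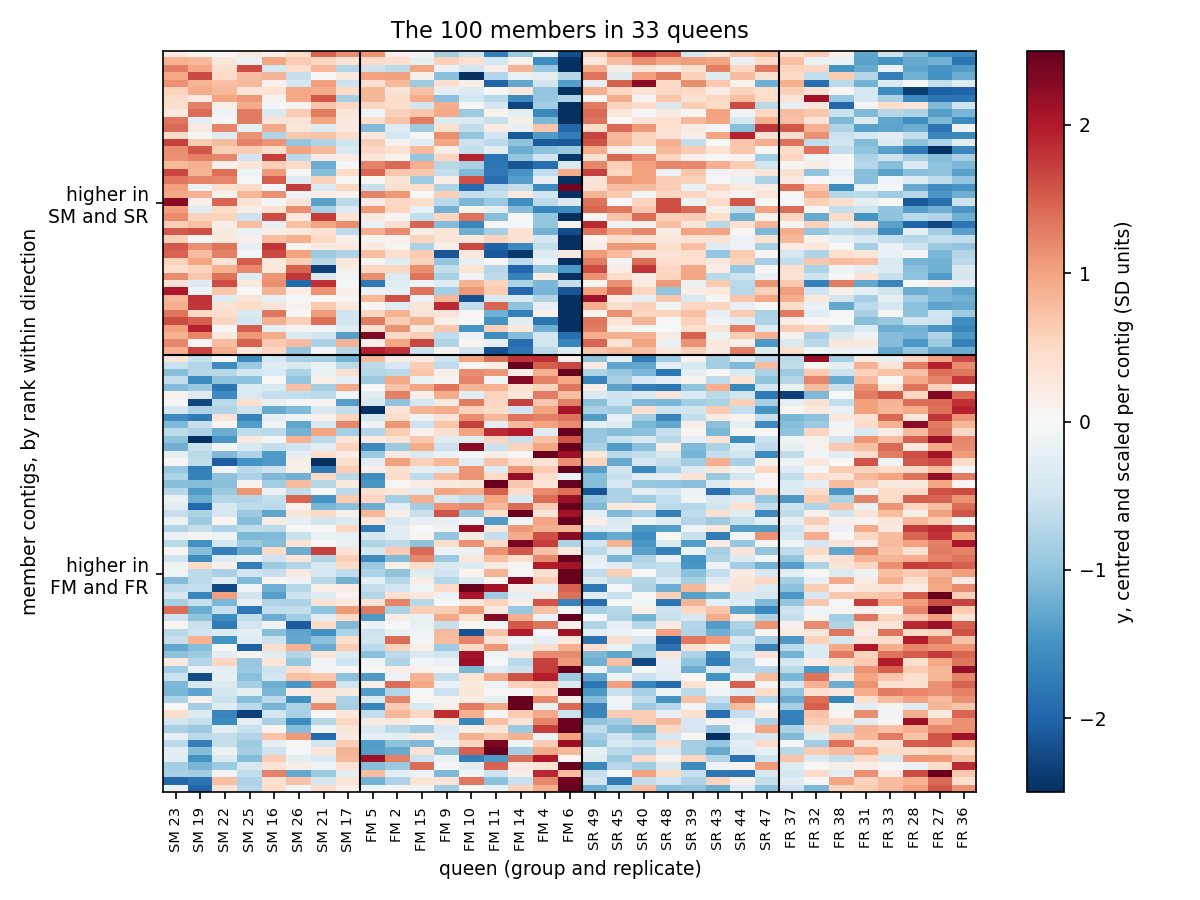
y of each member, centred and divided by its SD over the 33 queens (colour, SD units, limited at 2.5), with success-high members above failure-high members and queens sorted within each group from most to fewest members on the success side. FM replicate 6 and FR replicates 36, 27 and 28 stand at one end, and FR replicate 37 resembles the SR queens.

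Members varied together within groups. The rule did not ask for this, but the same queens' values chose the members. After each group's mean was removed, pairs of success-high members had a median correlation of 0.380 over the 33 queens, pairs of failure-high members of 0.299, and pairs of opposite direction of -0.320. Over all pairs of eligible contigs the median size of the correlation was 0.212, against 0.326 over all pairs of members. The pairs share queens, libraries and scaling, so the correlations are given without a test. With any 1 library left out and the same members kept, the median for members on the same side stayed between 0.285 and 0.347. It was lowest without FR replicate 37. The 100 contigs of the crossed parting had 0.411 for pairs on the same side and the 100 of the stage parting 0.0848, against 0.328 for the members, so shared variation is not particular to the members.

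Each member was also set against the mean of the other members, signed by direction, in the same residuals. The correlation was over 0.5 in 69 members and below 0 in none, with a median of 0.573 and a range of 0.0166 to 0.871. Contig1073, a success-high contig, stood high in this respect at 0.83, and Contig2702, a failure-high contig, low at 0.04. Among the 3824 eligible contigs outside the set, 1057 (27.6%) had a correlation over 0.5 in size with the mean of the members. Queens of 1 group that lay toward the failed side in 1 member thus tended to do so in many, and other contigs varied along with them.

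The spread was widest in FM queens. The median SD of y over members was 0.154 in SM, 0.249 in FM, 0.151 in SR and 0.197 in FR queens. FM had the highest of the 4 SDs in 67 members, and in 55.5% of eligible contigs. Without FM replicate 6 this held in 49 members and 44.8% of eligible contigs, and the median SD in FM queens was 0.215.

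The direction of the members was followed within each colony, where 2 or 3 queens stood on each side. SR minus FR had the direction of the rule in 100 members in C2, 100 in C3 and 71 in C9, with median differences of 0.370, 0.243 and 0.0641 once signed by direction. SM minus FM had it in 75 members in C2, 99 in C3 and 98 in C7, with median differences of 0.0860, 0.323 and 0.199. All 6 colony pairs had the direction of the rule in 49 members, beside 5.96% of eligible contigs with 1 direction in all 6. A further 45 members had it in 5 pairs and 6 members in 4. The same queens' values chose the members, so these counts describe the set and are no test of stability across colonies. In C9, without FR replicate 37, which left FR replicate 38 alone, 80 members had the direction and the median was 0.148. In C2, without FM replicate 5, 83 members had it and the median was 0.134.

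**Figure D5:**
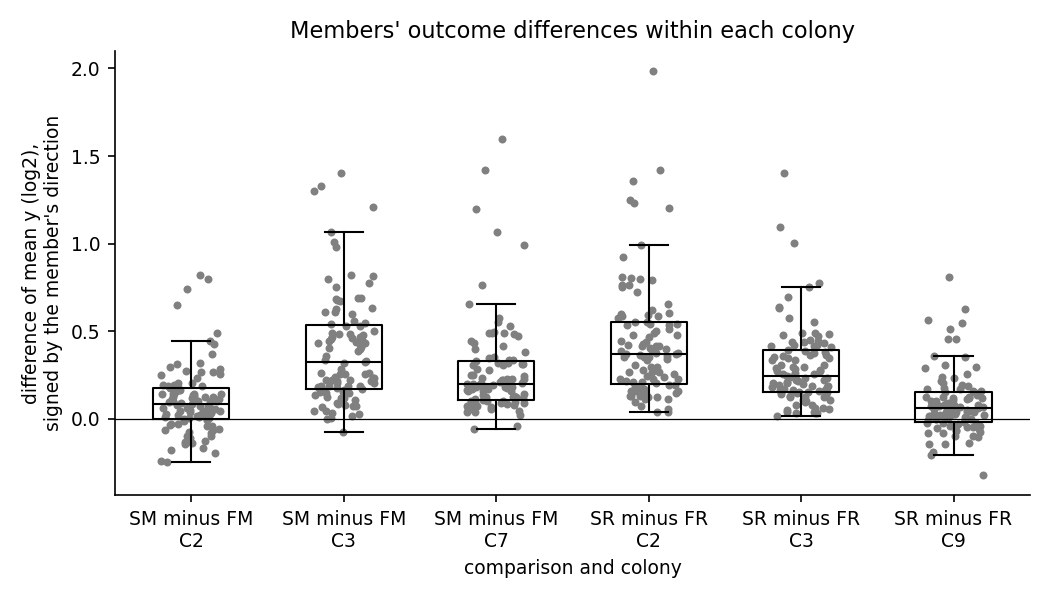
Difference of mean y (log2) between successful and failed queens within each colony, signed so that positive means the member's own direction, with 1 point per member, boxes at the quartiles and median and whiskers to 1.5 times the interquartile range. Nearly all members lie above 0 in 4 of the 6 comparisons, and SM minus FM in C2 and SR minus FR in C9 lie closest to 0.

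Colony itself was tested between C3 and C2, the only colonies with queens in all 4 groups. The edgeR quasi-likelihood test called 2 members, both lower in C3, beside 2.19% of the 5606 contigs (1.03% higher and 1.16% lower). At an unadjusted p under 0.05 there were 8 members, beside 13.6% of contigs. Contig2702 had a low of 411, a median of 514 and a high of 603 CPM in the 12 C3 queens, against 494, 611 and 676 CPM in the 10 C2 queens. The fitted change was -0.16 ± 0.04 (log2, SE), with an edgeR adjusted p of 0.0117, and the mean was lower in C3 than in C2 in each of the 4 groups. Contig9574 had 0.813, 2.04 and 2.58 CPM in C3 queens, against 1.35, 2.84 and 4.05 CPM in C2 queens. The fitted change was -0.52 ± 0.14 (log2, SE), with an edgeR adjusted p of 0.0432. Its mean too was lower in C3 in each of the 4 groups. Contig648, the member with the lowest p in the other direction, averaged 50.2 ± 9.32 CPM in C3 (SD, n = 12) and 44.2 ± 6.24 CPM in C2 queens (SD, n = 10), and it did not pass (edgeR adjusted p = 0.173).

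The call of Contig2702 held in every alternative and with any 1 library left out (edgeR, DESeq2 or limma-voom adjusted p at most 0.0391). That of Contig9574 was lost in 18 of the 33 fits without 1 library, which left 1 member called: FM replicates 4, 5, 9 and 10, SM replicates 16, 19, 21 and 23, FR replicates 27, 28, 31, 32 and 33, and SR replicates 40, 43, 44, 47 and 49. The rule divides by the SD within groups, so contigs that differ between colonies enter less easily. The median log2 fold change for C3 minus C2 was 0.02 in members and 0.01 over all contigs, and its median size was 0.06 in members and 0.11 over all contigs.

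Age was tested among the 17 queens sampled before hibernation, in a fit that also held group and colony. The edgeR quasi-likelihood test called 0 members, beside 0.267% of the 5241 contigs tested there (0.229% higher and 0.0382% lower with age), and 15 had an unadjusted p under 0.05, beside 11.8%. DESeq2 called 1 member, Contig3413, beside 1.98% of contigs, and limma-voom 0, beside 0%. Contig3413, a failure-high contig, had a log2 slope of 0.0413 ± 0.0105 per day (SE; edgeR adjusted p = 0.136). Contig1073, a success-high contig, had one of -0.0293 ± 0.00953 per day (SE; edgeR adjusted p = 0.239).

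The signs of the age slopes mostly followed the outcome direction of the members. The fitted slope was negative in 36 of 41 success-high members and positive in 41 of 59 failure-high members, beside 49.9% positive over all contigs tested. Members vary together, so these signs are not independent observations and were not tested as a list. The rule used y of the same queens, FM replicate 6 among them, so the signs describe the set and give no test of age. They rested most on FM replicate 6, the oldest of these queens at 27 days, without which 24 success-high members had a negative and 31 failure-high members a positive slope. Over the other libraries left out 1 at a time the counts were 31 to 39 and 40 to 49.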

How the data were processed

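Per the labels' protocols, 1 TruSeq mRNA library was made from the brain of each of 33 queens and read on an Illumina HiSeq instrument. FastQC, TopHat, SAMtools and edgeR appear in the submitters' processing notes, with neither role nor version. The genome build, annotation and counting program were not given in the sources used here. Raw read counts were deposited by the authors for 10672 contigs, of which 1799 had no read, with 1 column per library and totals of 42858092 to 61560882. The authors also deposited scaled scores, used for 1 alternative. A table of group scores was not used.

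From the counts, CPM and y were computed with Python 3.11.15. Counts were filtered with filterByExpr (minimum count 10) and fitted with group and colony over all queens by edgeR 4.0.16 (TMM, robust quasi-likelihood) under R 4.3.3, with DESeq2 1.42.0 and limma 3.58.1 as alternatives. Age was fitted over FM and SM queens. Other scalings, filters, colony sets and left-out libraries were tried. The steps were tested on simulated data. Queens, some from the same colony, are the replicates. The p-values thus set a difference against the spread between these queens and do not speak for other colonies. The median count per library was at least 49 reads in every member, but single counts went down to 0. Counting error, which was not measured, weighs most on the 25 members averaging 1 to 5 CPM.

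The members and comparisons were chosen with earlier results of these data known. At most 2 contigs per direction are named in a comparison: those with the highest ratio, the largest called fold change or, with none called, the lowest p. The contigs at the edge of the set are named too.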

Additional observations from a re-analysis of the deposited data

Results flagged for a closer look

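Within-group spread was checked in 76 sets of values, each a named contig or the number of members on the success side in 1 group, with contigs taken on the scale of y, and 2 sets held a queen far from the rest. Chance flags about 1 set in 20. FR replicate 37 had 88 members on the success side, and the next FR queen had 41. Contig4020 had a y of -2.70 in SM replicate 21, and the next SM queen had -3.12. In CPM the same library had 12.2, and the next highest SM queen had 9.16.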

How the results depend on the processing

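The choice of members depended on the scaling and the colonies. Of the 100, 50 were chosen again with CPM and no centring (55 still parted by outcome), 62 with group means adjusted for colony (64), 32 without colony C2 (66), 38 without C3 (49), 53 without C7 and 61 without C9. With the authors' scaled scores, added after seeing the data, only 44 contigs parted by outcome and 10 members were among them. A pseudocount of 0.5, TMM factors and a minimum of 5 CPM kept 96, 73 and 75. With 1 library left out, 61 to 92 members were chosen again, the fewest without FM replicates 5 (61) and 6 (64), and 65 to 100 were still parted by outcome, the fewest without FM replicate 6. No member was parted the other way.

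The share of all contigs called in the same setting stands in brackets. For SR minus FR the count of called members was 87 by limma-voom (58.1%) and 54 with only the compared groups (37.5%), and 18 to 52 with 1 library left out. For the average of SM minus FM and SR minus FR it was 91 by limma-voom (33.4%), 20 with no filter (1.57%) and 0 to 74 with 1 library left out. For FR minus FM it was 1 by DESeq2 (23%), 26 by limma-voom (44.1%) and 0 to 6 with 1 library left out. For C3 minus C2 it was 1 with total counts (1.57%), with no filter (1.3%) and with only colonies C2 and C3 (1.62%), and 1 to 2 with 1 library left out. For age it was 1 by DESeq2 (1.98%) and 0 with 1 library left out. Counts for SM minus FM and SR minus SM were 0 in all settings run. No fold change turned sign in the comparison for which its contig was named. In other comparisons some did. The fitted SR minus FR ranged from -0.043 to 0.179 in Contig880 over these settings. It ranged from -0.215 to 0.0023 in Contig2883 and from -0.203 to 0.012 in Contig2702. The causes were not tested. No paired analysis was possible because replicate numbers are not shared between groups.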
